A study of Mus musculus with 49 samples.

Results

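The messages of 10 cytokine genes, Ifng, Tnf, Lta, Ltb, Lif, Osm, Csf2, Il10, Il16, and Tgfb1, were followed in CD8+ T cells of 2 knock-in mouse lines over 48 hr of culture with IL-2. The genes were taken by symbol from the RNA-seq tables, with the longest transcript of each symbol, and they are 10 of 23992 gene symbols there. CD8+ T cells, the T cells that can become killer cells, were purified from spleens of mice of 2 lines. In the Stat5a line the KI allele changes 1 tyrosine of STAT5A to phenylalanine (Y694F), and the Stat5b line has the matching change in STAT5B (Y699F). Founders of both lines came from B6D2F1 zygotes and were backcrossed to C57BL/6J. KI mice of both lines were homozygous, made with CRISPR/Cas9, and each line was compared with WT littermates from matings of heterozygous mice. The mice were of both sexes and 8 to 24 weeks old. Cells were collected at 0 hr without IL-2, or at 4, 24, and 48 hr with human recombinant IL-2 at 500 IU/ml. Each of the 16 groups of line, genotype, and time had 3 libraries, and replicate 3 of the Stat5a line KI cells at 4 hr was left out, so that 47 libraries were used and that group had 2. The KI alleles are germline changes that all cells of the mice carry, and the labels do not say whether the libraries of a group came from separate mice, so that p-values measure only the spread between these libraries, which may be technical.

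IL-2 acts on T cells by activating JAK kinases, which phosphorylate STAT5A and STAT5B. The phosphorylated STAT5 proteins pair, enter the nucleus, and bind GAS motifs near their target genes. Effector CD8+ T cells are known for interferon gamma, encoded by Ifng, and for TNF, encoded by Tnf, which act on infected and tumour cells and on macrophages. Lta and Ltb encode lymphotoxins alpha and beta, relatives of TNF that shape lymphoid tissue, and Ltb anchors lymphotoxin alpha to the cell surface. Lif and Osm encode leukemia inhibitory factor and oncostatin M, members of the IL-6 family that signal through gp130, and Csf2 encodes GM-CSF, a growth factor of granulocytes and macrophages. Il10 and Tgfb1 encode the inhibitory cytokines IL-10 and TGF-beta 1, and Il16 encodes a precursor that is cleaved to release IL-16, a ligand of CD4.

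In RefSeq on the build GRCm38.p6, Ltb (chr17:35194507-35196305, + strand), Tnf (chr17:35199367-35202007, − strand), and Lta (chr17:35203165-35205578, − strand) lie side by side, with 3061 bases between Ltb and Tnf and 1157 bases between Tnf and Lta. Osm (chr11:4236785-4241026, + strand) and Lif (chr11:4257568-4272514, + strand) are also neighbours, 16541 bases apart. Csf2 lies at chr11:54247270-54249899 on the − strand, next to Il3. Ifng lies at chr10:118441046-118445894 (+ strand), Il10 at chr1:131019845-131024970 (+ strand), Il16 at chr7:83642819-83746028 (− strand), and Tgfb1 at chr7:25687002-25705077 (+ strand). These coordinates span all RefSeq transcripts of a gene, and the transcript counted here is shorter for Lta (chr17:35203165-35205351), Lif (chr11:4266796-4272514), and Il16 (chr7:83642819-83735539). Lta and Ltb each overlap a microRNA gene, Csf2 overlaps Gm12223, and Il16 overlaps a pseudogene, and since the use of strand in counting is not stated, reads of such overlaps cannot be assigned with certainty.

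The promoters of the TNF cluster and of Ifng are shown because these 4 genes, though 3 of them are neighbours, differed in their response to IL-2 and to the KI alleles. RefSeq windows of 250 bases before to 50 bases after the transcription start were at hand for 8 of the 10 genes, and the windows of Lta, Tnf, Ltb, and Ifng lie at the start of the transcript counted here. Capitals mark matches to the GAS letters TTCNNNGAA, which read the same on both strands in their fixed letters, and all 4 sequences are written 5′ to 3′ on the strand of the gene.
Lta: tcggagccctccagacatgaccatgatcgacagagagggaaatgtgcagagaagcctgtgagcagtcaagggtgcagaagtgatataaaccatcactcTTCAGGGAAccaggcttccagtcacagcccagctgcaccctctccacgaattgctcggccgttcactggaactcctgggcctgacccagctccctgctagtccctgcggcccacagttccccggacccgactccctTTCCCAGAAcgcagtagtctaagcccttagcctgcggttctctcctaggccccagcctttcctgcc
Tnf: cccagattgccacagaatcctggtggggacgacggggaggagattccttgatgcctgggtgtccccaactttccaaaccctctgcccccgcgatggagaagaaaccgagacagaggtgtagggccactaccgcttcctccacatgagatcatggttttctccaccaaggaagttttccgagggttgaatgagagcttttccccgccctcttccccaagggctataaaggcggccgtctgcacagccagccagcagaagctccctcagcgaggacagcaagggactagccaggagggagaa
Ltb: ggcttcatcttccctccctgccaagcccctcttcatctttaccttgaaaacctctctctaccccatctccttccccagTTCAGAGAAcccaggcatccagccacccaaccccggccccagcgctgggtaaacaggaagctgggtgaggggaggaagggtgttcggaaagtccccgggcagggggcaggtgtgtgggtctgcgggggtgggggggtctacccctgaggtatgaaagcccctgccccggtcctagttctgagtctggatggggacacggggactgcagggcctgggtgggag
Ifng: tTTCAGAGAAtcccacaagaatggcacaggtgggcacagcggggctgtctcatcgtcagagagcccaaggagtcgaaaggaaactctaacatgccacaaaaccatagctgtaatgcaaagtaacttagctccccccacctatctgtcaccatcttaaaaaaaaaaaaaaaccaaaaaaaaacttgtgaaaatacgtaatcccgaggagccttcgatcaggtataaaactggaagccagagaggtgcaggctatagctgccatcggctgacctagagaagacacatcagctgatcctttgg
The windows are chr17:35205302-35205601 for Lta (− strand), chr17:35201958-35202257 for Tnf (− strand), chr17:35194257-35194556 for Ltb (+ strand), and chr10:118440796-118441095 for Ifng (+ strand). The Lta window held 2 GAS matches, TTCAGGGAA and TTCCCAGAA, at positions −152 and −16 from the first base of this transcript. Ltb held 1 match (TTCAGAGAA, position −172) and Ifng 1 (TTCAGAGAA, position −249), and the Tnf window held none. The windows of Lif, Csf2, and Tgfb1 and all windows of Il16, which are not printed, also held no GAS match. Of all 32851 promoter windows of this length, 8.3% held the GAS letters. The AP-1 letters TGANTCA, searched on both strands, were in 7.81% of windows, and among these genes in the Lif window, which lies at the start of the other Lif transcript, and in the third of the Il16 windows, at the start of the transcript counted. A match describes the letters of the window and not binding, and STAT5 binding was not analysed here.

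The libraries held 17369112 to 60200653 reads on the longest transcripts (median 41410666), so a count of 3 corresponds to 0.0498 to 0.173 CPM (counts scaled to library size), for counting error only. The library left out held 1028515 such reads, 5.68% of its mapped reads against 44.86% to 84.43% in the others. All 10 genes passed the filter on low counts and were among the 15566 genes tested. Csf2 reached 10 reads in every library in 9 of the 16 groups and Il10 in 11, and the other 8 genes did so in all 16. Levels are given as the deposited RPKM, which scales reads by transcript length and mapped reads. Differences are log2 fold changes from edgeR's quasi-likelihood test on the counts, with Benjamini-Hochberg adjusted p over all genes tested. A gene counted as called where this p did not exceed 0.05 and the change was 2-fold or more. Values after ± are approximate standard errors, derived as the absolute log2 fold change divided by the square root of the F statistic of the test.

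The labelled cell type was checked first. All 5 CD8 T cell markers (Cd8a, Cd8b1, Cd3d, Cd3e, and Cd3g) were present in every group, and their summed RPKM was 584.8 to 1667. At 48 hr the sum was 1062, 1075, and 1184 in the Stat5a line WT libraries and 1505, 1535, and 1661 in the KI libraries. The Stat5b line had 1029.6, 1039, and 1062 in WT and 1498, 1572, and 1667 in KI cells, so the KI libraries of both lines lay above WT in this sum at 48 hr. At 0 hr they lay below WT, with 932, 948, and 1164 in WT and 837, 846, and 881 in KI cells of the Stat5a line and 1158, 1277, and 1298 in WT and 954, 989, and 1016 in KI cells of the Stat5b line. Among Stat5a line WT libraries, replicate 2 at 4 hr stood apart, since 44.86% of mapped reads fell on the longest transcripts and it had the lowest RPKM of its group for 7 of the 10 genes. Its counts differed from those of the other 2 libraries of its group by a chi-square per gene of 217 and 221, against 23.0 between those. Replicate 3 at 0 hr of these WT cells also stood apart, by 42.0 and 53.3 against 15.6, and results that rest on either library are given without both. The 2 libraries of Stat5a line KI cells at 4 hr differed by 52.2, and with 2 libraries neither could be called the one apart. Both libraries were kept and each was left out in turn.

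Before IL-2, the 10 genes spanned a wide range of levels per length. At 0 hr Ltb had the highest RPKM in every group (186.1 to 254.7 over the 12 libraries), followed by Tgfb1 (48.2 to 66.8) and Il16 (19.0 to 24.1), and these 3 ranges did not overlap. Ifng (5.34 to 12.0) followed and overlapped with Tnf (3.48 to 8.55), which overlapped with Lta (3.32 to 4.88). Below Lta came Osm (1.58 to 2.75), while Il10 (0.375 to 3.32) overlapped with Osm and with Lif (0.114 to 0.541), and Csf2 (0.0332 to 0.214) was lowest and overlapped with Lif. At 48 hr of IL-2 in WT cells the order was different, since Lta (74.8 to 91.0), Tgfb1 (71.1 to 89.6), and Ifng (35.6 to 81.3) then overlapped below Ltb (249.0 to 310.4). Osm (28.8 to 33.5), Tnf (28.1 to 33.0), Il16 (30.4 to 34.1), and Lif (23.3 to 36.9) overlapped at that time, Lif also with the lowest Ifng library, with Csf2 (1.35 to 2.61) and Il10 (0.121 to 0.335) below them.

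In WT cells of both lines 6 of the 10 messages, those of Ifng, Tnf, Lta, Lif, Osm, and Csf2, were higher after 24 hr with IL-2 than at 0 hr, Il10 was lower, and Ltb, Il16, and Tgfb1 were within 2-fold of 0 hr. All libraries at 4, 24, and 48 hr had IL-2, so that IL-2 and time in culture cannot be told apart in any comparison with 0 hr. At 4 hr, 4 genes were called higher (Tnf, Lta, Lif, and Osm) and 2 lower (Ifng and Il10) in each line, where 10.0% and 11.4% of all genes were called in these directions for the Stat5a line and 5.83% and 9.89% for the Stat5b line. At 24 hr, 6 were higher and 1 lower in each line, against 8.72% and 14.2% of all genes for the Stat5a line and 9.07% and 13.5% for the Stat5b line. The counts at 48 hr were again 6 and 1 in each line, against 14.3% and 22.3% for the Stat5a line and 14.6% and 20.7% for the Stat5b line. The median log2 fold change of the 10 genes at 48 hr was 2.38 and 2.47, beside −0.12 and −0.13 over all genes. Over all times and both lines, 40 of the 60 tests of these genes were called, beside 25.8% of all tests. The libraries at 0 hr are shared by the comparisons at 4, 24, and 48 hr of a line. These are bulk samples of purified cells, in which fewer cells of a type that makes a message and less message per cell cannot be told apart, here and below.

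**Figure D1:**
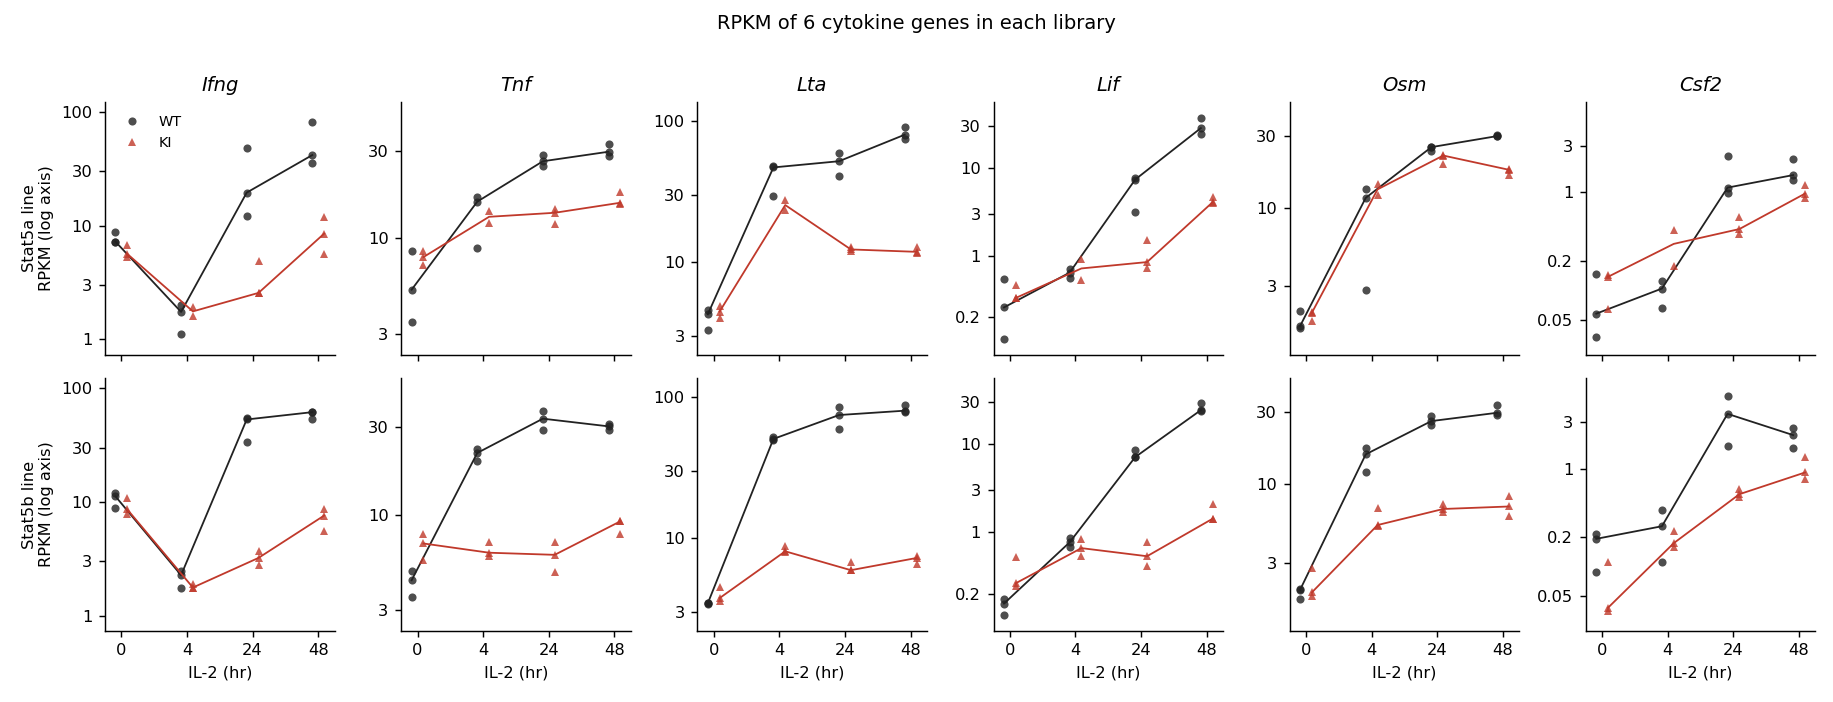
RPKM (log axis, 1 scale per gene) of Ifng, Tnf, Lta, Lif, Osm, and Csf2 against hours of IL-2 in the Stat5a line (top) and the Stat5b line (bottom), with 1 point per library (circles WT, triangles KI) and lines through group medians. At 24 and 48 hr the WT libraries lie above all KI libraries of their line for each of the 6 genes.

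KI cells were compared with their own 0 hr libraries in the same way. At 24 hr, Lta, Lif, Osm, Csf2, and Il16 were called higher and Ifng and Il10 lower in Stat5a line KI cells (7.36% and 13.8% of all genes), and Osm, Csf2, and Il16 higher and Ifng and Il10 lower in Stat5b line KI cells (4.59% and 11.2%). At 4 hr the calls were Lta and Osm higher in the Stat5a line (6.58%) and Osm and Il16 higher in the Stat5b line (4.92%), with Ifng and Il10 lower in both (11.2% and 8.85%). At 48 hr, Lta, Lif, Osm, Csf2, and Il16 were higher in the Stat5a line (9.31%) and Lif, Osm, Csf2, and Il16 in the Stat5b line (5.56%), and Il10 was lower in both (16.7% and 13.2%). The Il16 calls at 24 and 48 hr in Stat5a line KI cells (1.04 ± 0.081 and 1.04 ± 0.081) ended with DESeq2 and with its size factors in edgeR (0.97 and 0.98 by DESeq2), and the Il10 call at 4 hr in Stat5b line KI cells ended with no filter (−0.95), with all 48 libraries (−0.95), with only the libraries compared (−0.97), and with limma (−0.55). In all, 31 of 60 tests in KI cells were called, beside 18.9% of all tests. Tnf was called by none of edgeR, DESeq2, and limma in these comparisons, though its edgeR adjusted p was at most 0.05 at all 3 times in the Stat5a line (0.51, 0.55, and 0.81 on the log2 scale).

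KI and WT cells were then compared at each time. At 0 hr edgeR called Il10 alone, higher in KI cells of both lines (none lower by edgeR or DESeq2, 0.180% and 0.604% of all genes), where 0.861% of all genes for the Stat5a line and 7.38% for the Stat5b line were called higher. At 4 hr, Il10 was higher in both lines (2.47% and 9.20% of all genes), and Tnf, Lta, and Osm were lower in Stat5b line KI cells (1.23%), while none of the 10 was called lower for the Stat5a line by edgeR (4.16% of all genes, with 1 of the 10 at an unadjusted p under 0.05 and 1, Lta, called by DESeq2). At 24 hr, 5 of 10 were lower in Stat5a line KI cells (Ifng, Tnf, Lta, Lif, and Csf2, against 1.24% of all genes) and 6 of 10 in Stat5b line KI cells (the same 5 and Osm, against 5.77%). At 48 hr, Ifng, Lta, and Lif were lower in the Stat5a line (2.43%), and the 6 genes of 24 hr were lower in the Stat5b line (9.81%). With limma on log2(RPKM + 1), the genes called lower in the Stat5a and Stat5b lines numbered 3 and 6 at 24 hr and 3 and 5 at 48 hr. None was called higher in the Stat5a line at 24 or 48 hr by edgeR or DESeq2 (3.21% and 6.35% of all genes, with 2 and 1 of the 10 at an unadjusted p under 0.05). Il10 was higher in Stat5b line KI cells at 24 hr (10.9%) and 48 hr (16.5%). The text of the study names Ifng, Tnf, Lta, Lif, Osm, and Il16, and not Csf2, from these same libraries, so these counts describe the genes and are not independent evidence. The study lists these named genes among messages significantly decreased in mutant cells. Of them, Il16 was called neither higher nor lower here, and its KI libraries lay above WT from 4 hr on, the opposite direction. Over all times and both lines, 29 of the 80 tests of KI against WT were called, beside 10.3% of all such tests. The median of the 10 genes at 48 hr was −0.81 for the Stat5a line and −1.52 for the Stat5b line, beside 0.038 and 0.10 over all genes.

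**Figure D2:**
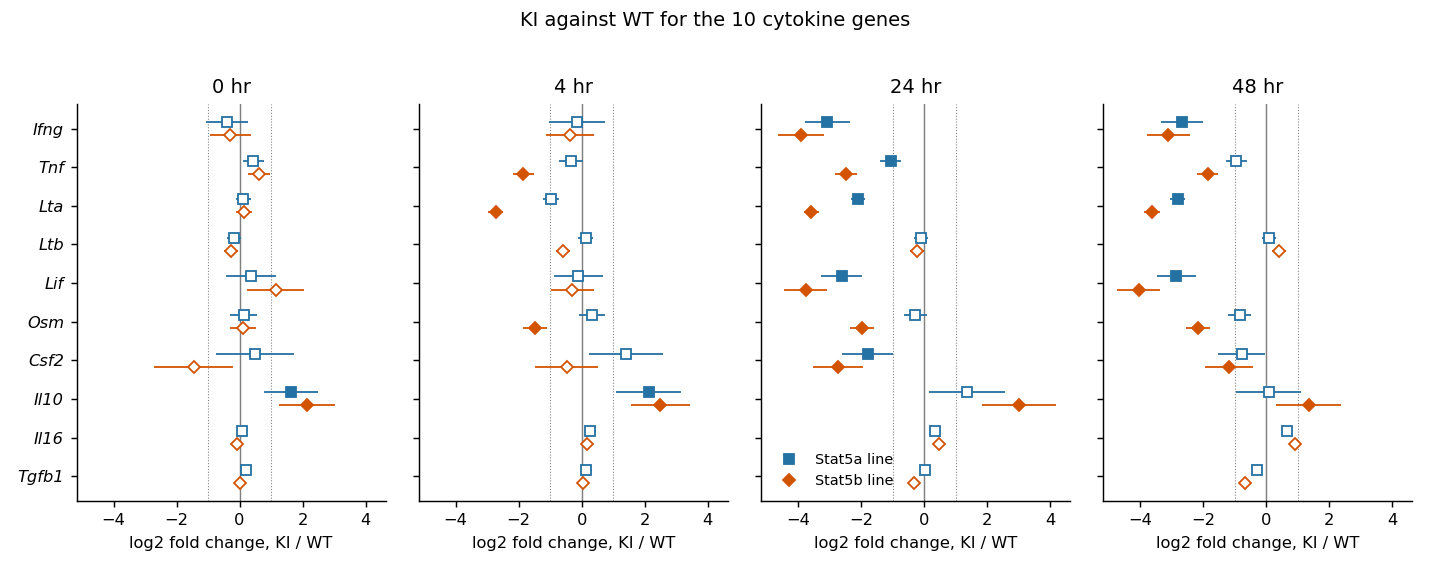
Log2 fold change of KI against WT (horizontal axis) for the 10 genes at 0, 4, 24, and 48 hr, with squares for the Stat5a line, diamonds for the Stat5b line, filled where called, bars spanning the 95% interval, and dotted lines at a fold change of 2. At 24 and 48 hr the points of Ifng, Lta, and Lif lie left of the lower dotted line in both lines, and Osm does so in the Stat5b line alone.

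Ifng, the gene of interferon gamma, moved down and then up in WT cells. In Stat5a line WT cells its RPKM was 7.18, 7.23, and 8.77 at 0 hr, 1.10, 1.74, and 1.99 at 4 hr, 12.2, 19.5, and 48.0 at 24 hr, and 35.6, 41.7, and 81.3 at 48 hr. The Stat5b line WT libraries had 8.82, 11.2, and 12.0 at 0 hr, 1.74, 2.27, and 2.45 at 4 hr, 33.7, 53.0, and 54.2 at 24 hr, and 53.9, 61.5, and 62.1 at 48 hr. In both lines every library at 4 hr lay below and every library at 24 and 48 hr above those at 0 hr. The log2 fold change in WT cells was −2.22 ± 0.38, edgeR adjusted p = 5.53e-06, at 4 hr and 2.57 ± 0.34, edgeR adjusted p = 2.4e-08, at 48 hr in the Stat5a line. For the Stat5b line it was −2.48 ± 0.36, edgeR adjusted p = 4.5e-07, at 4 hr and 2.30 ± 0.34, edgeR adjusted p = 1.71e-07, at 48 hr. The rise at 24 hr in the Stat5a line, 1.61 ± 0.33, was 0.89 without replicate 3 at 24 hr, the highest of its group, and then missed the fold threshold, as the fall in Stat5a line KI cells at 24 hr (−1.05 ± 0.35) did without replicate 2 at 0 hr or without replicate 2 or 3 at 24 hr (−1.42 to −0.90 over the 6 such fits).

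The fall of Ifng at 4 hr was called in KI cells too, and a later rise above 0 hr was not. In Stat5a line KI cells the RPKM of Ifng was 5.34, 5.64, and 6.72 at 0 hr, 1.60 and 1.92 in the 2 libraries at 4 hr, 2.53, 2.56, and 4.88 at 24 hr, and 5.64, 8.50, and 11.8 at 48 hr. In Stat5b line KI cells it was 7.78, 8.58, and 10.9 at 0 hr, 1.76, 1.76, and 1.89 at 4 hr, 2.76, 3.22, and 3.67 at 24 hr, and 5.52, 7.58, and 8.68 at 48 hr. At 24 hr the highest KI library of each line lay below its lowest WT library, by 4.88 against 12.2 RPKM for the Stat5a line and 3.67 against 33.7 RPKM for the Stat5b line. KI against WT gave −3.07 ± 0.36, edgeR adjusted p = 2.94e-07, at 24 hr and −2.67 ± 0.34, edgeR adjusted p = 6.73e-08, at 48 hr in the Stat5a line, folds of 8.38 and 6.37. Without replicate 3 of WT cells at 24 hr the log2 difference at 24 hr was −2.35, still called. The Stat5b line gave −3.90 ± 0.37, edgeR adjusted p = 4.59e-11, and −3.11 ± 0.35, edgeR adjusted p = 1.03e-09, folds of 14.9 and 8.64. At 0 and 4 hr the effects were −0.16 to −0.40 on the log2 scale, with intervals that reached from −1.13 to 0.72, and none was called by edgeR, DESeq2, or limma.

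Tnf and Lta, neighbours on chromosome 17, rose with IL-2 by 4 hr. Tnf RPKM in Stat5b line WT cells was 3.56, 4.38, and 4.91 at 0 hr, 19.6, 21.7, and 22.9 at 4 hr, 29.0, 33.4, and 37.0 at 24 hr, and 29.1, 30.3, and 31.1 at 48 hr. In KI cells of this line it was 5.67, 6.96, and 7.86 at 0 hr, 5.98, 6.20, and 7.07 at 4 hr, 4.87, 6.03, and 7.10 at 24 hr, and 7.84, 9.20, and 9.25 at 48 hr, and these overlapped the values at 0 hr at each time with IL-2. KI libraries thus lay above WT at 0 hr and below WT from 4 hr on. The effect on Tnf in the Stat5b line was −1.85 ± 0.18, edgeR adjusted p = 4.63e-10, at 4 hr, −2.49 ± 0.18, edgeR adjusted p = 6.23e-14, at 24 hr, and −1.86 ± 0.17, edgeR adjusted p = 1.2e-11, at 48 hr, and at 0 hr 0.61 ± 0.18, edgeR adjusted p = 0.0108, under the fold threshold.

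In the Stat5a line the Tnf values were 3.48, 5.25, and 8.50 RPKM at 0 hr, 8.91, 15.9, and 16.8 at 4 hr, 25.0, 26.4, and 28.5 at 24 hr, and 28.1, 29.7, and 33.0 at 48 hr in WT cells. The KI libraries had 7.18, 7.90, and 8.55 at 0 hr, 12.2 and 14.0 at 4 hr, 12.0, 13.8, and 14.4 at 24 hr, and 15.3, 15.7, and 17.9 at 48 hr. All KI libraries were below all WT libraries at 24 and 48 hr, and the RPKM ranges overlapped at 0 and 4 hr. Tnf was called at 24 hr, −1.05 ± 0.17, edgeR adjusted p = 4.03e-05, and fell short of the fold threshold without replicate 3 of the KI cells at 24 hr (−0.98). At 48 hr it was −0.95 ± 0.17, edgeR adjusted p = 1.81e-05, which is under a fold of 2.

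Lta showed the largest drop of the TNF cluster. In Stat5a line WT cells its RPKM was 3.32, 4.27, and 4.60 at 0 hr, 29.6, 46.95, and 48.0 at 4 hr, 41.0, 52.0, and 59.5 at 24 hr, and 74.8, 80.1, and 91.0 at 48 hr. The KI libraries of this line had 4.00, 4.46, and 4.88 at 0 hr, 23.4 and 27.4 at 4 hr, 12.0, 12.3, and 12.8 at 24 hr, and 11.7, 11.8, and 12.7 at 48 hr. The genotypes overlapped at 0 hr and were apart at 4, 24, and 48 hr, and KI cells kept a rise over 0 hr that was largest at 4 hr (2.28 ± 0.13). Effects of KI were −0.98 ± 0.13, edgeR adjusted p = 6.15e-06, at 4 hr, −2.10 ± 0.12, edgeR adjusted p = 2.01e-15, at 24 hr, and −2.81 ± 0.12, edgeR adjusted p = 2.17e-19, at 48 hr, of which the first missed a fold of 2. The difference at 4 hr was called by DESeq2 (−1.04, DESeq2 adjusted p = 7.51e-12) and by edgeR with DESeq2's size factors and with all 48 libraries (−1.17).

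The Stat5b line WT cells had Lta at 3.41, 3.46, and 3.49 RPKM at 0 hr, 50.2, 50.8, and 52.6 at 4 hr, 59.4, 75.0, and 85.1 at 24 hr, and 79.4, 80.5, and 89.1 at 48 hr. In KI cells the values were 3.61, 3.77, and 4.54 at 0 hr, 8.05, 8.10, and 8.80 at 4 hr, 5.94, 5.95, and 6.85 at 24 hr, and 6.57, 7.26, and 7.49 at 48 hr. Every KI library with IL-2 lay above the KI libraries at 0 hr and far below the WT libraries of its time. KI against WT was −2.73 ± 0.12, edgeR adjusted p = 7.98e-19, at 4 hr, −3.58 ± 0.13, edgeR adjusted p = 2.77e-22, at 24 hr, and −3.62 ± 0.13, edgeR adjusted p = 1.64e-22, at 48 hr, folds of 6.65, 11.9, and 12.3. At 0 hr the difference was 0.14 ± 0.13, with an interval of −0.11 to 0.39.

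Ltb, the third gene of the cluster, was the most abundant of the 10 messages per length and was called in no comparison by edgeR or DESeq2. On log2(RPKM + 1), limma called it higher at 4 hr than at 0 hr in Stat5b line WT cells (limma adjusted p = 3.97e-05) and in Stat5a line KI cells (limma adjusted p = 6.19e-05). Its RPKM ranged from 186.1 to 254.7 at 0 hr and, apart from 139.2 in the WT library that stood apart, from 321.0 to 486.8 at 4 hr. With IL-2 for 4 hr its log2 fold change was 0.56 ± 0.11 and 0.83 ± 0.11 in WT cells of the Stat5a and Stat5b lines. KI against WT ranged from −0.60 (Stat5b line, 4 hr, edgeR adjusted p = 0.000121) to 0.41 (Stat5b line, 48 hr, edgeR adjusted p = 0.00218), and in the Stat5a line from −0.18 to 0.12. In the Stat5b line all KI libraries were below WT at 0, 4, and 24 hr and above WT at 48 hr (351, 355, and 386 against 249, 262, and 269 RPKM), so that its small differences changed sign with time.

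Lif, the gene of leukemia inhibitory factor, had the widest range of the 10, a ratio of 182 between the highest and the lowest group median. In Stat5a line WT cells its RPKM was 0.114, 0.259, and 0.541 at 0 hr, 0.562, 0.643, and 0.715 at 4 hr, 3.12, 7.33, and 7.72 at 24 hr, and 24.0, 28.1, and 36.9 at 48 hr. KI cells had 0.329, 0.332, and 0.471 at 0 hr, 0.529 and 0.907 at 4 hr, 0.727, 0.848, and 1.52 at 24 hr, and 4.00, 4.06, and 4.69 at 48 hr. The genotypes overlapped at 0 and 4 hr and were apart at 24 and 48 hr, when both had risen. KI against WT was −2.62 ± 0.33, edgeR adjusted p = 1.08e-06, at 24 hr and −2.85 ± 0.32, edgeR adjusted p = 5.04e-09, at 48 hr.

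In the Stat5b line, Lif in WT cells was 0.115, 0.154, and 0.175 RPKM at 0 hr, 0.678, 0.763, and 0.857 at 4 hr, 7.07, 7.09, and 8.56 at 24 hr, and 23.4, 24.2, and 29.4 at 48 hr. The KI values were 0.245, 0.263, and 0.525 at 0 hr, 0.533, 0.657, and 0.833 at 4 hr, 0.409, 0.532, and 0.771 at 24 hr, and 1.39, 1.42, and 2.07 at 48 hr. At 48 hr the lowest WT library was above the highest KI library by 23.4 against 2.07 RPKM, and at 0 hr the KI libraries lay above WT. The log2 difference was −3.76 ± 0.35, edgeR adjusted p = 3.98e-11, at 24 hr and −4.06 ± 0.34, edgeR adjusted p = 1e-12, at 48 hr, folds of 13.6 and 16.6, and 1.15 ± 0.46, edgeR adjusted p = 0.068, at 0 hr, which edgeR did not call. DESeq2 called this Lif difference at 0 hr (1.17, DESeq2 adjusted p = 0.0215), as edgeR did with only the libraries compared and without both Stat5a line WT libraries that stood apart (adjusted p = 0.0216 and 0.0448). Calls of Lif that depended on 1 library were its rise at 4 hr in Stat5a line WT cells (1.16 ± 0.39), which was 0.75 without replicate 3 at 0 hr, 0.95 without replicate 2 at 4 hr, 0.48 without both, and 1.89 without replicate 2 at 0 hr, and its rise at 24 hr in Stat5a line KI cells (1.21 ± 0.37), which was 0.84 without replicate 1 of those cells.

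Osm, the neighbour of Lif on chromosome 11, rose with IL-2 in WT and KI cells of both lines at every time. In the Stat5a line its RPKM was 1.59, 1.64, and 2.04 at 0 hr, 2.82, 11.6, and 13.3 at 4 hr, 23.6, 25.2, and 25.4 at 24 hr, and 29.7, 29.8, and 30.5 at 48 hr in WT cells. KI cells of this line had 1.77, 2.01, and 2.02 at 0 hr, 12.2 and 14.2 at 4 hr, 19.3, 22.2, and 22.4 at 24 hr, and 16.5, 17.8, and 17.9 at 48 hr. The KI libraries lay below WT at 24 and 48 hr, with log2 differences of −0.28 ± 0.19, edgeR adjusted p = 0.328, and −0.84 ± 0.19, edgeR adjusted p = 0.000376, and neither passed the fold threshold. The 2.82 RPKM at 4 hr is the WT library that stood apart.

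In the Stat5b line, Osm in WT cells had an RPKM of 1.73, 1.98, and 1.99 at 0 hr, 12.0, 15.7, and 17.3 at 4 hr, 24.5, 26.1, and 28.1 at 24 hr, and 28.8, 29.7, and 33.5 at 48 hr. KI cells had 1.79, 1.90, and 2.75 at 0 hr, 5.26, 5.33, and 6.96 at 4 hr, 6.51, 6.81, and 7.32 at 24 hr, and 6.13, 7.07, and 8.27 at 48 hr. The KI level was nearly flat from 4 to 48 hr while the WT level went on rising, and the genotypes were apart at all 3 times. KI against WT was −1.47 ± 0.19, edgeR adjusted p = 4.81e-07, at 4 hr, −1.96 ± 0.20, edgeR adjusted p = 1.53e-10, at 24 hr, and −2.18 ± 0.20, edgeR adjusted p = 5.35e-12, at 48 hr.

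Csf2, the gene of GM-CSF, was the rarest of the 6 messages that rose. It was at 0.0332 to 0.214 RPKM at 0 hr, from 2 to 12 reads a library. At 24 hr the RPKM was 0.980, 1.12, and 2.38 in Stat5a line WT cells and 0.374, 0.423, and 0.566 in KI cells. The Stat5b line had 1.70, 3.64, and 5.58 in WT and 0.517, 0.549, and 0.623 in KI cells. All KI libraries lay below WT in both lines at 24 hr, and again at 48 hr, when KI cells had 0.885, 0.973, and 1.18 against 1.35, 1.51, and 2.18 for the Stat5a line and 0.790, 0.916, and 1.32 against 1.62, 2.21, and 2.61 for the Stat5b line. KI against WT was −1.79 ± 0.41, edgeR adjusted p = 0.00197, for the Stat5a line and −2.72 ± 0.41, edgeR adjusted p = 6.8e-07, for the Stat5b line at 24 hr. At 48 hr it was −0.78 ± 0.38, edgeR adjusted p = 0.0952, in the Stat5a line, which was not called, and −1.18 ± 0.38, edgeR adjusted p = 0.00804, in the Stat5b line.

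Il10, the gene of the inhibitory cytokine IL-10, went the other way, since it fell with IL-2 and was higher in KI cells. On log2(RPKM + 1), limma called the fall in WT cells at 24 and 48 hr in neither line. Nor did limma call the higher KI level in the Stat5b line at those times. In Stat5a line WT cells its RPKM was 0.375, 1.09, and 1.09 at 0 hr, 0.0989, 0.206, and 0.402 at 4 hr, 0.0465, 0.0769, and 0.131 at 24 hr, and 0.121, 0.132, and 0.335 at 48 hr. The KI cells of this line had 1.77, 2.87, and 3.32 at 0 hr, 0.843 and 1.66 at 4 hr, 0.0912, 0.253, and 0.347 at 24 hr, and 0.0509, 0.147, and 0.460 at 48 hr. The genotypes were apart at 0 and 4 hr and overlapped at 24 and 48 hr, when libraries held 3 to 36 reads of Il10. KI against WT was 1.63 ± 0.43, edgeR adjusted p = 0.0294, at 0 hr and 2.12 ± 0.52, edgeR adjusted p = 0.00492, at 4 hr. The call at 0 hr was lost in 4 of the 6 fits that left out 1 of its libraries (replicates 1 and 3 of WT and 1 and 2 of KI cells, 1.23 to 1.87, with adjusted p up to 0.249 in edgeR) and also without both WT libraries that stood apart (1.25, adjusted p = 0.098), and the call at 4 hr was lost without replicate 1 of the KI cells (1.60). Neither call was made with only the libraries compared or with limma, and the call at 0 hr was also lost with all 48 libraries.

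In Stat5b line WT cells Il10 was at 0.429, 0.622, and 0.832 RPKM at 0 hr, 0.218, 0.274, and 0.328 at 4 hr, 0.0122, 0.0784, and 0.0923 at 24 hr, and 0.144, 0.159, and 0.171 at 48 hr. KI cells had 2.68, 2.96, and 3.03 at 0 hr, 1.59, 1.61, and 1.78 at 4 hr, 0.339, 0.518, and 0.673 at 24 hr, and 0.333, 0.455, and 0.498 at 48 hr. All KI libraries were above all WT libraries at all 4 times. The log2 fold change was 2.14 ± 0.45, edgeR adjusted p = 0.000547, at 0 hr, 2.49 ± 0.48, edgeR adjusted p = 0.000131, at 4 hr, 3.02 ± 0.60, edgeR adjusted p = 6.03e-05, at 24 hr, and 1.35 ± 0.53, edgeR adjusted p = 0.0253, at 48 hr. At 24 hr the WT libraries held 1 to 7 reads and the KI libraries 22 to 48, and the call at 48 hr was lost in 5 of the 6 fits without 1 of its libraries (any of WT and replicates 1 and 3 of KI cells, 1.24 to 1.47). The fall from 0 to 4 hr was also lost without single libraries, in 3 of 6 such fits in Stat5b line WT cells (replicate 3 at 0 hr and replicates 1 and 2 at 4 hr, −1.54 to −1.10), in 3 of 5 fits in Stat5a line KI cells (replicates 1 and 2 at 0 hr and replicate 2 at 4 hr, −1.85 to −0.93), and in all 6 in Stat5b line KI cells (−1.07 to −0.89).

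Markers of other cell types moved in part with Il10. All 5 B cell markers used (Ms4a1, Cd79a, Cd79b, Pax5, and Blnk) were present, with Cd79a or Cd79b the most abundant and none at 0. Their summed RPKM at 0 hr was 48.6, 123.9, and 133.6 in WT and 201, 226, and 248 in KI cells of the Stat5a line, and 45.1, 47.2, and 52.6 in WT and 185, 187, and 189 in KI cells of the Stat5b line. At 48 hr these sums were 11.4, 27.1, and 32.8 against 85.0, 94.7, and 99.0 for the Stat5a line and 9.80, 11.2, and 11.5 against 105.5, 108.2, and 110.8 for the Stat5b line. The sum thus fell with IL-2, as Il10 did, and the KI libraries of both lines lay above WT at all 4 times. In the Stat5a line at 24 and 48 hr the genotypes were thus apart in this sum and overlapped in Il10. Of the 5 markers, 1, 4, 5, and 5 were called higher in Stat5a line KI cells at 0, 4, 24, and 48 hr (0.861%, 2.47%, 3.21%, and 6.35% of all genes), and all 5 in the Stat5b line at each time (7.38%, 9.20%, 10.9%, and 16.5%).

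Of the 10 macrophage and monocyte markers 9 were in the files, none at 0, with Mpeg1 or Lyz2 the most abundant. Their summed RPKM at 0 hr was 87.6, 106.6, and 136.04 in WT and 169, 181, and 256 in KI cells of the Stat5a line, and 87.2, 87.5, and 106.7 and 203, 258, and 322 for the Stat5b line. At 48 hr it was 7.91, 14.5, and 15.1 against 36.7, 38.0, and 88.0 for the Stat5a line and 6.91, 6.93, and 9.82 against 83.5, 98.0, and 122.3 for the Stat5b line. This sum was also higher in KI cells and lower after IL-2. At 48 hr, when 6.35% and 16.5% of all genes were called higher, 7 of the 9 markers were called higher in Stat5a line KI cells and all 9 in the Stat5b line. Of the dendritic cell markers, 5 and 6 of 6 were called higher at 48 hr in the Stat5a and Stat5b lines, and of the CD4 T cell markers 2 and 3 of 4. The counts were 1 and 3 of 4 for NK cell markers, with 1 lower in the Stat5b line. They were 1 and 2 of 4 for neutrophil markers and 0 and 4 of 4 for erythroid markers. At 48 hr Retnlg of neutrophils was at 0 in all 4 groups and S100a8 of neutrophils in Stat5a line WT cells. The part of these cells in the Il10 values was not tested.

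**Figure D3:**
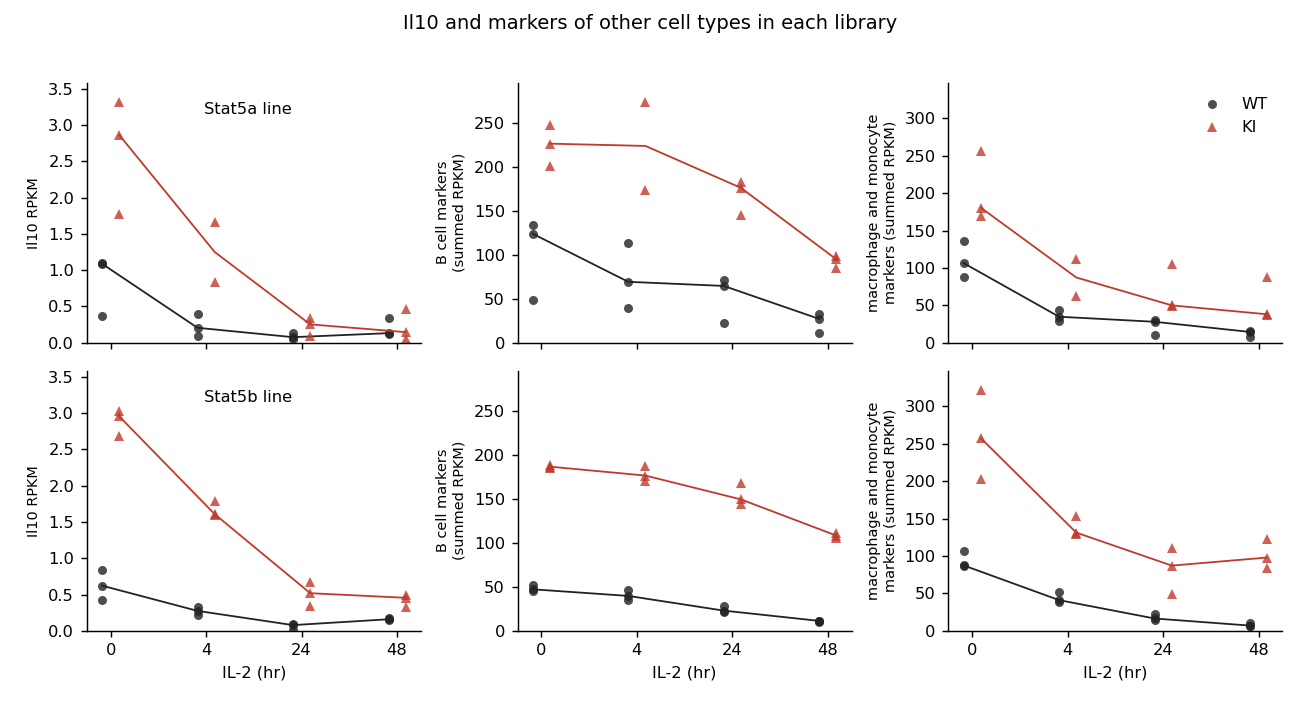
Il10 RPKM, the summed RPKM of 5 B cell markers, and the summed RPKM of 9 macrophage and monocyte markers (linear axes from 0) against hours of IL-2 in the Stat5a line (top) and the Stat5b line (bottom), with 1 point per library (circles WT, triangles KI) and lines through group medians. In the Stat5b line the KI libraries lie above WT in all 3 measures at all 4 times, and the medians are highest at 0 hr.

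Il16, the gene of the IL-16 precursor, rose more in KI cells than in WT cells. Its RPKM was 19.0 to 24.1 over all libraries at 0 hr. At 48 hr it was 31.5, 32.5, and 34.1 in WT and 52.8, 53.8, and 53.8 in KI cells of the Stat5a line, and 30.4, 30.8, and 31.3 in WT and 56.7, 60.5, and 68.8 in KI cells of the Stat5b line. From 4 hr on every KI library of a line lay above every WT library of its time. KI against WT at 48 hr was 0.66 ± 0.08, edgeR adjusted p = 2.56e-08, for the Stat5a line and 0.93 ± 0.08, edgeR adjusted p = 2.13e-12, for the Stat5b line, both under a fold of 2. The IL-2 response at 48 hr was 0.45 ± 0.08 in WT and 1.04 ± 0.081 in KI cells of the Stat5a line, and 0.41 ± 0.08 and 1.43 ± 0.082 for the Stat5b line. The difference of these responses was called by edgeR in the Stat5b line alone. That call was lost in 6 of 12 fits without 1 library.

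Tgfb1, the gene of TGF-beta 1, stayed within 2-fold in all 30 comparisons and was called in none by edgeR, DESeq2, or limma. Its group medians ran from 48.8 to 94.2 RPKM. At 48 hr WT cells had 71.1, 72.2, and 80.6 and KI cells 60.1, 60.4, and 68.9 in the Stat5a line, and the Stat5b line had 83.2, 84.2, and 89.6 in WT and 53.2, 56.6, and 59.1 in KI cells. KI libraries were below WT in both lines at 48 hr, with log2 differences of −0.29 ± 0.082, edgeR adjusted p = 0.00374, for the Stat5a line and −0.68 ± 0.083, edgeR adjusted p = 5.02e-09, for the Stat5b line, which is below the fold threshold.

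**Figure D4:**
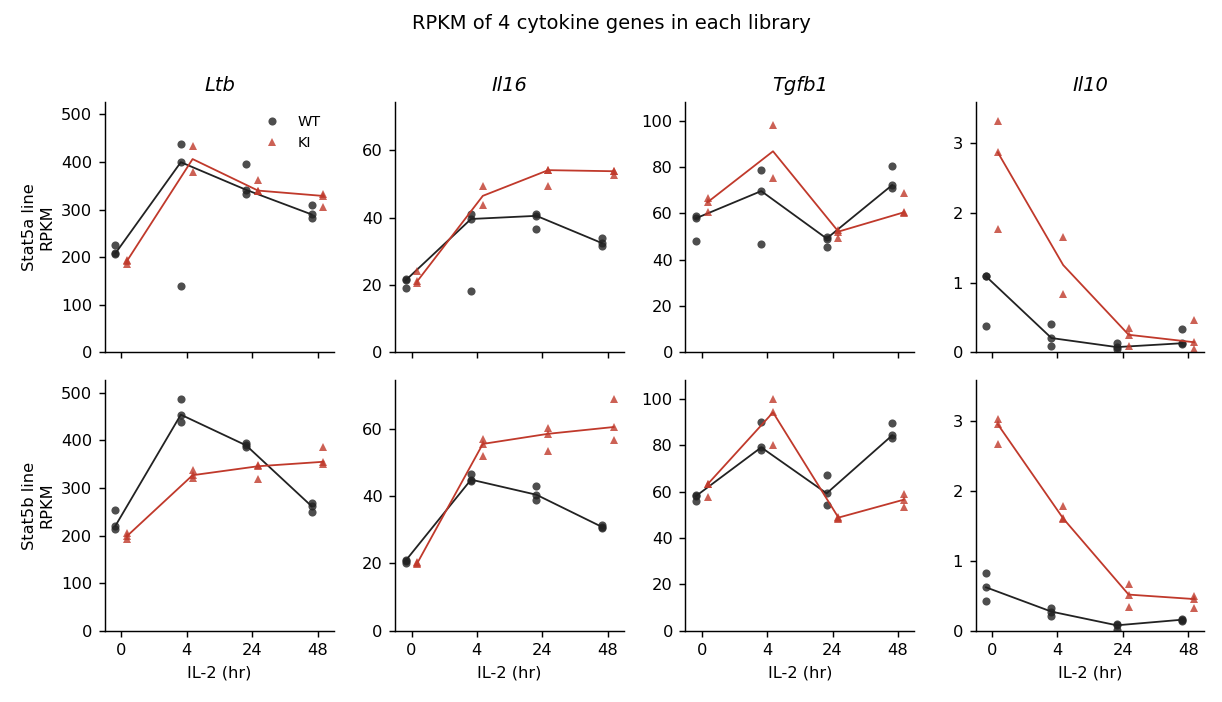
RPKM (linear axes from 0) of Ltb, Il16, Tgfb1, and Il10 against hours of IL-2 in the Stat5a line (top) and the Stat5b line (bottom), with 1 point per library (circles WT, triangles KI) and lines through group medians. The Il16 points of KI cells lie above those of WT cells from 4 hr on, and the 1 low WT point at 4 hr in the Stat5a line for Ltb, Il16, and Tgfb1 is the library that stood apart.

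Whether the response to IL-2 differed between genotypes was tested directly as the difference of the log2 fold changes from 0 hr, KI minus WT. Shares of all genes in this paragraph count calls in either direction. At 4 hr, Lta in the Stat5a line (0.340% of all genes called) and Tnf, Lta, and Osm in the Stat5b line (0.610%) responded less in KI cells. At 24 hr these were Ifng, Tnf, Lta, and Lif in the Stat5a line (1.59%) and the same 4 and Osm in the Stat5b line (10.2%). At 48 hr the same 4 and the same 5 genes were called lower, and Il16 was called higher in the Stat5b line (6.25% and 21.4% of all genes in either direction). In all, 23 of 60 tests were called, beside 6.72% of all tests. The widest difference was that of Lif at 48 hr, −3.21 ± 0.51, edgeR adjusted p = 1.18e-05, for the Stat5a line and −5.20 ± 0.56, edgeR adjusted p = 7.41e-10, for the Stat5b line. Without replicate 2 of Stat5a line WT cells at 0 hr the Stat5a line value was −3.94. For Lta at 48 hr it was −2.94 ± 0.17, edgeR adjusted p = 8.49e-15, and −3.76 ± 0.18, edgeR adjusted p = 5.56e-18. For Ifng it was −2.27 ± 0.47, edgeR adjusted p = 0.000395, and −2.82 ± 0.47, edgeR adjusted p = 4.74e-06. Il16 in the Stat5b line, 1.02 ± 0.11, edgeR adjusted p = 1.75e-09, passed the fold threshold by little and missed it in 6 of 12 fits without 1 library (replicates 1 and 2 of WT at 0 hr, all of WT and replicate 1 of KI cells at 48 hr, 0.95 to 1.04). It also missed the threshold with DESeq2 (0.99), its size factors in edgeR, no filter, and all 48 libraries (0.98). The call of Lta at 4 hr in the Stat5a line (−1.10 ± 0.18) was lost without replicate 3 of WT cells at 0 hr (−0.98) and without both libraries that stood apart (−0.96). It was also lost with only the libraries compared and with limma. With all 48 libraries, 3 genes were called lower in the Stat5a line at 24 hr. For Csf2 the difference was −2.27 ± 0.77 and −1.26 ± 0.81 at 24 hr, and for Il10 −1.56 ± 0.69 and −0.79 ± 0.70 at 48 hr, none of them called by edgeR. With the replicate number as a block, edgeR called Il10 in the Stat5a line (−1.87, edgeR adjusted p = 0.0212). DESeq2 called Csf2 in the Stat5a line at 24 hr (−2.30, DESeq2 adjusted p = 0.0353), and limma called it in the Stat5b line (−1.34, limma adjusted p = 8.61e-05). Osm in the Stat5a line at 48 hr, −0.97 ± 0.29, edgeR adjusted p = 0.0103, missed the fold threshold, and it was called with DESeq2's size factors in edgeR, with no filter, and with all 48 libraries (−1.004, −1.01, and −1.01).

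The effect of KI in the Stat5b line was also compared with that in the Stat5a line, each against its own WT littermates. None of the 10 was called at 0 hr by edgeR or DESeq2 (0.0964% of all genes by edgeR, and 1 of the 10 at an unadjusted p under 0.05). Tnf, Lta, and Osm were more strongly lower in Stat5b line KI cells at 4 hr (4.72%) and at 24 hr (2.65%), and Osm alone at 48 hr (2.06%). These shares of all genes count calls in either direction. With only the libraries compared, 2 of the 10 genes were called lower at 4 hr. In all, 7 of 40 tests were called, beside 2.38% of all tests. The difference for Osm was −1.81 ± 0.28, edgeR adjusted p = 0.000384, at 4 hr, −1.68 ± 0.27, edgeR adjusted p = 3.06e-05, at 24 hr, and −1.34 ± 0.27, edgeR adjusted p = 0.000947, at 48 hr. The value at 4 hr rests in part on the Stat5a line WT library that stood apart at that time. Over the fits that left out 1 of its libraries it was −2.003 to −1.485, called in each. For Lta the difference was −1.75 ± 0.17, edgeR adjusted p = 3.46e-08, at 4 hr and −1.48 ± 0.16, edgeR adjusted p = 2.15e-07, at 24 hr, and at 48 hr −0.81 ± 0.16, under the fold threshold. Tnf gave −1.52 ± 0.25, edgeR adjusted p = 0.000912, and −1.44 ± 0.24, edgeR adjusted p = 5.71e-05, at 4 and 24 hr. For Ifng the lines differed by −0.83 ± 0.48 at 24 hr (95% interval −1.78 to 0.12) and −0.44 ± 0.46 at 48 hr (−1.34 to 0.46), neither called. For Lif the differences were −1.14 ± 0.46 and −1.20 ± 0.43, with edgeR adjusted p of 0.0963 and 0.0665, and without both Stat5a line WT libraries that stood apart both were called by edgeR (adjusted p = 0.0335 and 0.0144). At 48 hr edgeR also called the Lif difference with the replicate number as a block (−1.27, edgeR adjusted p = 0.027). It did so too with only the libraries compared (−1.20, edgeR adjusted p = 0.00145).

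The receptors of these cytokines were examined as a list of 17 genes, all tested. At 48 hr, 2 were called higher in Stat5a line KI cells and 7 in Stat5b line KI cells, and none lower by edgeR or DESeq2 (1 and 2 lower at an unadjusted p under 0.05), where 6.35% and 16.5% of all genes were called higher, with a median log2 fold change of 0.61 and 0.93 beside 0.038 and 0.10 over all genes. Ltbr, the receptor of membrane lymphotoxin, had log2 fold changes of 1.14 ± 0.38 and 2.36 ± 0.41, Lifr, the receptor of LIF, 1.20 ± 0.49 and 2.21 ± 0.51, and Csf2rb, the shared chain of the GM-CSF receptor, 0.90 ± 0.23 (not called) and 1.95 ± 0.24 in the Stat5a and Stat5b lines. Their levels were low, with Ltbr in the Stat5b line at 0.0819, 0.0916, and 0.124 RPKM in WT and 0.337, 0.468, and 0.819 in KI cells, and Csf2rb at 0.856, 0.904, and 1.31 and 3.91, 4.24, and 4.32. Osmr, the oncostatin M receptor, was called in the Stat5b line at 0, 0.00354, and 0.00660 RPKM in WT and 0.00751, 0.0307, and 0.0652 in KI cells, too low for a fold. The Lifr libraries of the Stat5a line overlapped in CPM. Markers of macrophages and monocytes were higher in the same libraries (above), and their part in the receptor values was not tested.

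Genes for processing and release of the cytokines (10 genes, all tested) were examined at 48 hr. In Stat5a line KI cells 1 was higher and 1 lower (6.35% and 2.43% of all genes), and in Stat5b line KI cells 4 were higher and 1 lower (16.5% and 9.81%), with medians of 0.23 and 0.31. Lrrc32, which holds latent TGF-beta at the cell surface, had 6.34, 8.60, and 11.7 RPKM in WT and 1.05, 1.06, and 1.30 in KI cells of the Stat5a line. The Stat5b line had 7.997, 8.48, and 8.96 in WT and 1.56, 1.58, and 1.71 in KI cells. The genotypes were apart in both lines, with −3.02 ± 0.26, edgeR adjusted p = 1.8e-11, and −2.47 ± 0.25, edgeR adjusted p = 9.66e-11. Itgb8, a chain of an integrin that activates latent TGF-beta, was higher, with log2 fold changes of 1.92 ± 0.70 and 2.68 ± 0.75, from at most 0.0206 RPKM in WT cells. Thbs1, whose product thrombospondin-1 can activate latent TGF-beta, was higher in the Stat5b line, 1.98 ± 0.36, edgeR adjusted p = 1.03e-05. Ltbp1, a carrier of latent TGF-beta, was listed at 0 in the 3 Stat5b line WT libraries and at 0.0657, 0.0846, and 0.103 RPKM in KI cells. In the same libraries markers of macrophages and monocytes were higher in KI cells (above), and their part in these values was not tested.

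Regulators of cytokine genes were taken as 2 lists. Of 10 genes of cytokine mRNA decay and stability, such as Zfp36, none was called by edgeR or DESeq2 at any time in either line, while at 48 hr 4 were higher and 3 lower for the Stat5a line and 7 higher and 3 lower for the Stat5b line at an unadjusted p under 0.05, and limma called 1 in the Stat5b line. Of all genes, edgeR called 6.35% higher and 2.43% lower for the Stat5a line and 16.5% and 9.81% for the Stat5b line at 48 hr. Of 17 transcription factors, 1 was higher and 3 lower in Stat5a line KI cells at 48 hr, and 2 higher and 5 lower in the Stat5b line, beside the same shares of all genes, with medians of −0.28 and −0.23. Maf, a factor that binds the Il10 promoter, was higher, 1.22 ± 0.27, edgeR adjusted p = 0.00031, for the Stat5a line and 2.15 ± 0.27, edgeR adjusted p = 1.14e-08, for the Stat5b line. Irf4, a factor of T cell activation, was lower, −1.41 ± 0.21, edgeR adjusted p = 1.04e-06, and −1.50 ± 0.21, edgeR adjusted p = 1.12e-07. Tbx21, which encodes T-bet, a main regulator of Ifng, was called lower in the Stat5b line at 48 hr (25.3, 26.3, and 26.4 RPKM in WT and 10.6, 13.0, and 13.1 in KI cells, −1.17 ± 0.15, edgeR adjusted p = 2.94e-08). In the Stat5a line the Tbx21 difference was −0.49 ± 0.15, edgeR adjusted p = 0.00835, under the fold threshold. Eomes, a relative of T-bet, was lower in both lines, −1.35 ± 0.19, edgeR adjusted p = 2.59e-07, and −1.01 ± 0.18, edgeR adjusted p = 1.24e-05. The memory-phenotype markers (Cd44, Il2rb, Cxcr3, Ly6c2, Eomes, and Itga4, all 6 present, Ly6c2 or Il2rb the most abundant) summed to 874, 991, and 1089 RPKM in WT and 588, 604, and 681 in KI cells of the Stat5a line, and to 1120.2, 1129, and 1142 and 486, 591, and 616 for the Stat5b line. At 0 hr the sum was already lower in KI cells without overlap, with 333, 386, and 395 in WT and 286, 289, and 317 in KI cells of the Stat5a line and 445, 493, and 511 in WT and 324, 352, and 361 in KI cells of the Stat5b line. The part of memory-phenotype cells in the values of Ifng and the other genes was not tested. Macrophage, monocyte, and CD4 T cell markers were higher in KI cells at 48 hr (above). The part of those cells in the values of Maf and the other factors was not tested either.

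Of 16 genes that interferon gamma is known to induce, 6 were called lower and 1 higher in Stat5a line KI cells at 24 hr (1.24% and 3.21% of all genes), and 9 lower and 1 higher in the Stat5b line (5.77% and 10.9%), with medians of −0.74 and −1.15 beside 0.011 and 0.068 over all genes. At 48 hr none was called lower in either line by edgeR, DESeq2, or limma (1 and 4 were lower at an unadjusted p under 0.05), with medians of 0.12 and −0.059, although Ifng itself was still lower. Gbp2, a guanylate-binding protein of cell defence chosen here after its values were seen, had 332, 408, and 476 RPKM in WT and 91.7, 115.7, and 154.4 in KI cells of the Stat5a line at 24 hr. The Stat5b line had 374, 407, and 418 in WT and 68.6, 69.8, and 77.8 in KI cells. The difference was −1.82 ± 0.32, edgeR adjusted p = 0.00014, and −2.50 ± 0.33, edgeR adjusted p = 7e-08, at 24 hr and −0.32 ± 0.31 and −0.83 ± 0.31 at 48 hr. The gene called higher was Ciita, the regulator of MHC class II genes, which B cells and other antigen-presenting cells also express, with log2 fold changes of 1.60 ± 0.24 and 2.88 ± 0.26 at 48 hr.

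Other cytokine genes were mostly rare. Clcf1, named here for its level, was the most abundant of them at 48 hr. Its median RPKM at that time was 20.24 in WT and 40.2 in KI cells of the Stat5a line. In the Stat5b line it was 19 in WT and 44.11 in KI cells. Of 27 listed, 21 passed the filter, and 5 were called higher in Stat5a line KI cells and 13 in Stat5b line KI cells at 48 hr, none lower by edgeR or DESeq2 or at an unadjusted p under 0.05, where 6.35% and 16.5% of all genes were called higher, with medians of 0.84 and 1.68. Il18, a cytokine that enhances interferon gamma production, was at 0, 0.0396, and 0.0737 RPKM in WT and 0.335, 0.478, and 0.557 in KI cells of the Stat5b line. Il12a, a subunit of IL-12, was at 0.0368, 0.0427, and 0.0526 and 0.197, 0.313, and 0.320. Il1a, a product of macrophages and other cells, was listed at 0 in 2 of the 3 WT libraries and was at 0.276, 0.357, and 0.429 in KI cells. All 3 genes thus stayed below 1 RPKM in this line. Il13, which encodes a type 2 cytokine, was called higher in the Stat5b line (2.88 ± 0.95) although its libraries overlapped, with 0.0132, 0.0142, and 0.139 RPKM in WT and 0.0308, 0.0602, and 1.21 in KI cells. Markers of macrophages and monocytes and of dendritic cells were higher in the same libraries (above), and their part in the values of these cytokine genes was not tested.

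The 10 genes did not follow 1 course over the 16 groups. Over the group means of log2 CPM, Tnf and Lta had a Pearson correlation of 0.94, Lif and Osm of 0.839, and Ifng and Lta of 0.376, given as a description since the groups share lines and libraries. By the same measure the genes most like Ifng were Gphn (0.955), Clpb (0.954), and Rbm3 (0.951), and those most like Tnf were Cdk6 (0.945), Lta (0.940), and Cndp2 (0.930). Lta was most like Rexo2 (0.967), Pcgf6 (0.958), and Cish (0.956), the last a suppressor of cytokine signalling that STAT5 is known to induce. Lif was most like Hat1 (0.984), Prim1 (0.982), and Cenpu (0.982), and Osm most like Pole2 (0.983), Trp53 (0.981), and Tefm (0.981). Csf2 was most like E2f6 (0.953), Exosc7 (0.950), and Slfn9 (0.947), and Il10 most like Rilpl1 (0.966), Stx7 (0.959), and S1pr3 (0.959).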

How the data were processed

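CD8+ T cell libraries were read by the authors as 50 bp reads, mapped to mm10 (GRCm38), and summarised per RefSeq transcript. Per the labels, the tools included TopHat2 2.0.11, Bowtie2 2.2.6, SAMtools 0.1.8, bedtools 2.25.0, and edgeR. The deposited tables give raw read counts and RPKM per transcript for 31682 transcripts, and the longest transcript of each symbol was used. Tnf and Lif have 2 transcripts each. The members and lists were chosen with earlier results of these data known. Counts of 47 libraries were fitted with edgeR 4.0.16 in R 4.3.3 (TMM scaling, filterByExpr with a minimum count of 10, 1 mean for each of the 16 groups, and the quasi-likelihood test). The 30 contrasts each had p-values adjusted by the Benjamini-Hochberg method over 15566 genes. The 95% intervals of the log2 fold changes were taken from the derived standard errors and the normal distribution, and so are approximate. The contrasts were IL-2 against 0 hr (6 in WT and 6 in KI cells), KI against WT (8), the difference of IL-2 responses (6), and the difference of KI effects between lines (4). RPKM values of a group are given from low to high and have no replicate order. The script was tested on simulated counts. No pair of libraries agreed within sampling noise (chi-square per gene at least 4.83).

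All 10 genes were named, and of each list at most 4 genes called in KI against WT at 48 hr, the largest log2 fold change first, with exceptions said in the text. Of the lists, 3 genes are not reported here and were left out of their counts and sums. For likeness, the 3 tested genes with the highest Pearson correlation over 16 group means were named. Motif letters were searched in RefSeq promoter windows of GRCm38.p6. Replicate numbers are shared between groups. Among comparisons with 3 pairs of samples of the same number, every pair deviated together with a correlation over 0.1 only for Stat5a line WT cells at 24 hr (correlations of 0.206, 0.273, and 0.419) and 48 hr (0.166, 0.117, and 0.192) against 0 hr, as a hint from the data, and a fit with the replicate number as a block gave the same 7 calls among the 10 genes there. Alternatives were DESeq2 1.42.0, its size factors in place of TMM, limma 3.58.1 on log2(RPKM + 1), no filter, the shortest transcript, only the libraries compared, adjusted p alone, all 48 libraries, the replicate block, and leaving out each library. A fit without both WT libraries that stood apart was added after seeing the data. Of the ChIP-seq samples of the series none was used here.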

Additional observations from a re-analysis of the deposited data

Results flagged for a closer look

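These values are differences between groups that were tested directly and passed the threshold. The response of Ifng to IL-2 was smaller in KI than in WT cells by −2.66 at 24 hr and −2.27 at 48 hr in the Stat5a line, and by −3.61 and −2.82 for Stat5b (log2 values throughout). For Tnf the difference was −1.49 at 24 hr and −1.38 at 48 hr for the Stat5a line, and −2.46 at 4 hr, −3.10 at 24 hr, and −2.47 at 48 hr for the Stat5b line. For Lta it was −1.10, −2.22, and −2.94 at 4, 24, and 48 hr for the Stat5a line, and −2.87, −3.72, and −3.76 for the Stat5b line. For Lif it was −2.97 at 24 hr and −3.21 at 48 hr for the Stat5a line, and −4.91 and −5.20 for the Stat5b line. Osm differed in the Stat5b line by −1.58, −2.07, and −2.29 at 4, 24, and 48 hr. The response of Il16 was larger in KI cells of the Stat5b line at 48 hr, by 1.02. For the Stat5a line, the Ifng difference at 24 hr was −1.93 without replicate 3 of WT cells at 24 hr, and the Lif differences at 24 and 48 hr were −3.71 and −3.94 without replicate 2 of WT cells at 0 hr.

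The effect of KI also differed between the lines, Stat5b minus Stat5a. It differed by −1.52 at 4 hr and −1.44 at 24 hr for Tnf, by −1.75 and −1.48 for Lta, and by −1.81 at 4 hr, −1.68 at 24 hr, and −1.34 at 48 hr for Osm. The Osm value at 4 hr was −2.003 to −1.485 over the fits that left out 1 of its libraries. Each line had its own WT littermates, so that line and litter cannot be told apart.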

How the results depend on the processing

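With edgeR, 40 of 60 tests of the 10 genes were called for IL-2 in WT cells, 31 of 60 in KI cells, 29 of 80 for KI against WT, 23 of 60 for the difference of responses, and 7 of 40 for the difference between lines. Over both lines at 48 hr, KI against WT called 9 of 34 tests of receptors, 7 of 20 of processing, 0 of 20 of mRNA decay, 11 of 34 of transcription factors, 2 of 32 of interferon gamma response, and 18 of 42 of other cytokines. By adjusted p alone, the counts were 49 for IL-2 in KI cells, 12 between lines, 22 receptors, 15 decay genes, 21 transcription factors, and 9 interferon gamma response genes. With limma on log2(RPKM + 1) they were 4 receptors, 2 processing genes, 1 decay gene, 7 transcription factors, and 1 other cytokine, and the cause was not tested. Leaving out 1 library gave 39 to 41, 29 to 32, 28 to 31, 21 to 26, and 7 to 8 calls for the 5 kinds of comparison, and 6 to 9 receptors, 6 to 7 processing genes, 0 to 0 decay genes, 8 to 11 transcription factors, 2 to 3 interferon gamma response genes, and 16 to 20 other cytokines. With the replicate block, calls numbered 40, 31, 29, 24, and 8 for the 5 kinds of comparison, and none of the 130 calls was lost. Of these 130, limma lost 25, all 48 libraries 7, only the libraries compared 7, DESeq2 3, its size factors 3, and no filter 2, and 13 were lost in at least 1 fit that left out 1 library, as the report gives for each. No direction of a called value was reversed in these alternatives. The change from TMM to DESeq2's size factors moved the median log2 fold change of these genes and lists by −0.069 to 0.071. Depth limits the values of Csf2 at 0 hr and of Il10 at 24 hr, where libraries held as few as 2 reads and 1 read.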
